A study of Mus musculus with 12 samples.

Results

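The extended pluripotency network described here is a list of 41 mouse genes that work around the core factors Pou5f1, Sox2 and Nanog in embryonic stem cells. The genes were taken by symbol from a fixed list, each through a probe set that the gene table assigns to that gene alone. All 41 were found among the 19938 genes measured. They comprise 17 transcription factors, 4 developmental pluripotency associated genes, 3 RNA-binding proteins, 4 genes of Polycomb repressive complex 2, 7 other chromatin and genome proteins, 3 genes of signalling, telomerase and ubiquitin ligation, and 3 cell surface markers.

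RNA was measured on 12 arrays, 3 for each of 4 groups. The ESC group was V6.5, an established mouse embryonic stem cell line, grown in DMEM with 15% fetal bovine serum and leukemia inhibitory factor (LIF) at 1000 IU/ml; its strain and genotype are not given in the sources used here. The null_EB group held embryoid bodies, which are free aggregates of cells; they appeared 24 to 36 h after C57Bl/6 CD47 null lung endothelial cells, passaged for 6 months, had been seeded in endothelial basal medium lacking serum. The null_EC group held C57Bl/6 lung endothelial cells with the CD47 null genotype, and the WT_EC group held wild-type C57Bl/6 lung endothelial cells, both kept in the endothelial growth medium EGM2. CD47 is a cell surface receptor for thrombospondin-1 and SIRP alpha. Medium and growth form differ along with cell type between these groups, and a passage time is given for null_EB alone. The study asked which genes differ between CD47 null cells, wild-type cells, the embryoid bodies and embryonic stem cells.

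Embryonic stem cells renew themselves while keeping the capacity to form every tissue of the embryo. The core factors and auxiliary factors such as Esrrb, Tfcp2l1 and Prdm14 activate each other and hold back differentiation, and LIF feeds into this circuit through Stat3. Polycomb repressive complex 2, whose catalytic subunit is Ezh2, places a repressive methyl mark on histone H3 at developmental genes. Many genes of the list, among them Dppa3, Dppa5a and Utf1, are little used outside pluripotent and germ cells, whereas others, such as Trim28, Rest and Ezh2, act in many dividing cell types.

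The values are log2 signals, and a difference is that of group means on the log2 scale, with its standard error (SE) from limma. A gene was called at a limma p, adjusted by Benjamini-Hochberg over all 19938 genes, below 0.05. A mean below 8.01, the median of all measured values, is described as low signal, a label that ranks no gene against another. No detection calls were used, so a fold against low signal is that of the measured signals and may be less than the fold in RNA. Signals of different genes are not set against each other, because each probe set binds with its own strength. Arrays of one group correlated at 0.994 to 0.997 in ESC, null_EB and null_EC, and at 0.954 to 0.968 in WT_EC, and the median SD per gene was 0.0847 in ESC, 0.0770 in null_EB, 0.0652 in null_EC and 0.213 in WT_EC. Because the fit shares one error over all groups, p-values in comparisons with WT_EC tend to be too small. Nothing in the labels tells if the replicates came from separate animals or cultures, and p-values measure only the spread between these samples, which may be technical. Cd47 itself lay at 10.89 to 10.99 in null_EB and 10.98 to 11.11 in null_EC, against 11.29 to 12.59 in WT_EC, and at 10.96 to 11.33 in ESC. Every null array was below every WT_EC array, but the signal in null cells was not low, and whether the probe set lies in the disrupted part of the gene was not checked.

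The cell type labels were set against marker lists. The stem cell markers Pou5f1, Sox2 and Nanog averaged 11.97, 11.02 and 12.58 in ESC and between 6.05 and 6.99 in the other groups. The endothelial cadherin Cdh5 had low signal on all arrays of ESC (6.94 to 7.02), null_EB (7.01 to 7.09) and null_EC (7.09 to 7.27), and in WT_EC it was 9.10, 6.85 and 9.52. Esam, another endothelial gene, had a similar pattern, at 10.34, 6.97 and 9.53 in WT_EC and 6.97 to 7.37 on the other arrays. Kdr, by contrast, was highest in null_EC. Kdr, a VEGF receptor, lay at 7.26 to 7.40 in null_EB, 10.52 to 10.83 in null_EC and 8.51 to 9.35 in WT_EC, with 6.84 to 6.98 in ESC. It was called 1.88 higher in null_EC than in WT_EC (limma adjusted p = 0.000108), the 1 increase in its list, and its null_EB minus null_EC difference was -3.36 (adjusted p = 8.04e-06). Flt1, another VEGF receptor, lay at 8.97 to 9.08 in null_EB, 8.30 to 8.64 in null_EC and 9.42 to 10.17 in WT_EC, with 9.11 to 9.23 in ESC. The median of 15 endothelial markers was 7.00 to 7.20 in ESC, 7.04 to 7.11 in null_EB, 7.23 to 7.27 in null_EC and 6.97 to 8.13 in WT_EC. The median of 8 mesothelial markers was 11.28 to 11.44 in null_EB, 12.13 to 12.21 in null_EC and 10.78 to 12.12 in WT_EC, against 7.66 to 7.79 in ESC. The median of 12 leukocyte markers was 6.74 to 6.98 on every ESC, null_EB and null_EC array and spread over 6.74 to 9.85 in WT_EC. The median of 10 fibroblast and mural markers was 10.07 to 10.19 in ESC, 10.31 to 10.58 in null_EB, 10.87 to 11.23 in null_EC and 11.01 to 12.33 in WT_EC. The part of these other cell types in the differences below was not tested.

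ESC stood apart from every other group over nearly the whole list. In ESC against null_EB, 38 members were higher and 2 lower at a background of 44.8% of all genes called. In ESC against null_EC, 39 were higher and 1 lower at a background of 47.9%, and in ESC against WT_EC, 37 were higher and 2 lower at a background of 47.1%. The higher calls alone took 21.8%, 22.9% and 25.4% of all genes in these comparisons, and the lower calls 23.0%, 25.1% and 21.7%. At least 2-fold higher calls covered 30, 30 and 34 members, beside 8.61%, 9.36% and 9.34% of all genes. The median difference of the members was 2.34, 2.28 and 2.53 on the log2 scale, beside -0.08, -0.09 and -0.07 over all genes. The ESC comparisons share the ESC arrays and are not independent of each other. On 37 of the 41 members each ESC array lay above all 9 other arrays, a pattern found for 20.7% of all genes, and on 2 each lay below all others, as for 19.6% of all genes. All 19 measured proliferation genes were also higher in ESC in each comparison, and their part in these differences was not tested. In bulk samples, fewer cells of a type and less RNA per cell cannot be told apart.

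**Figure D1:**
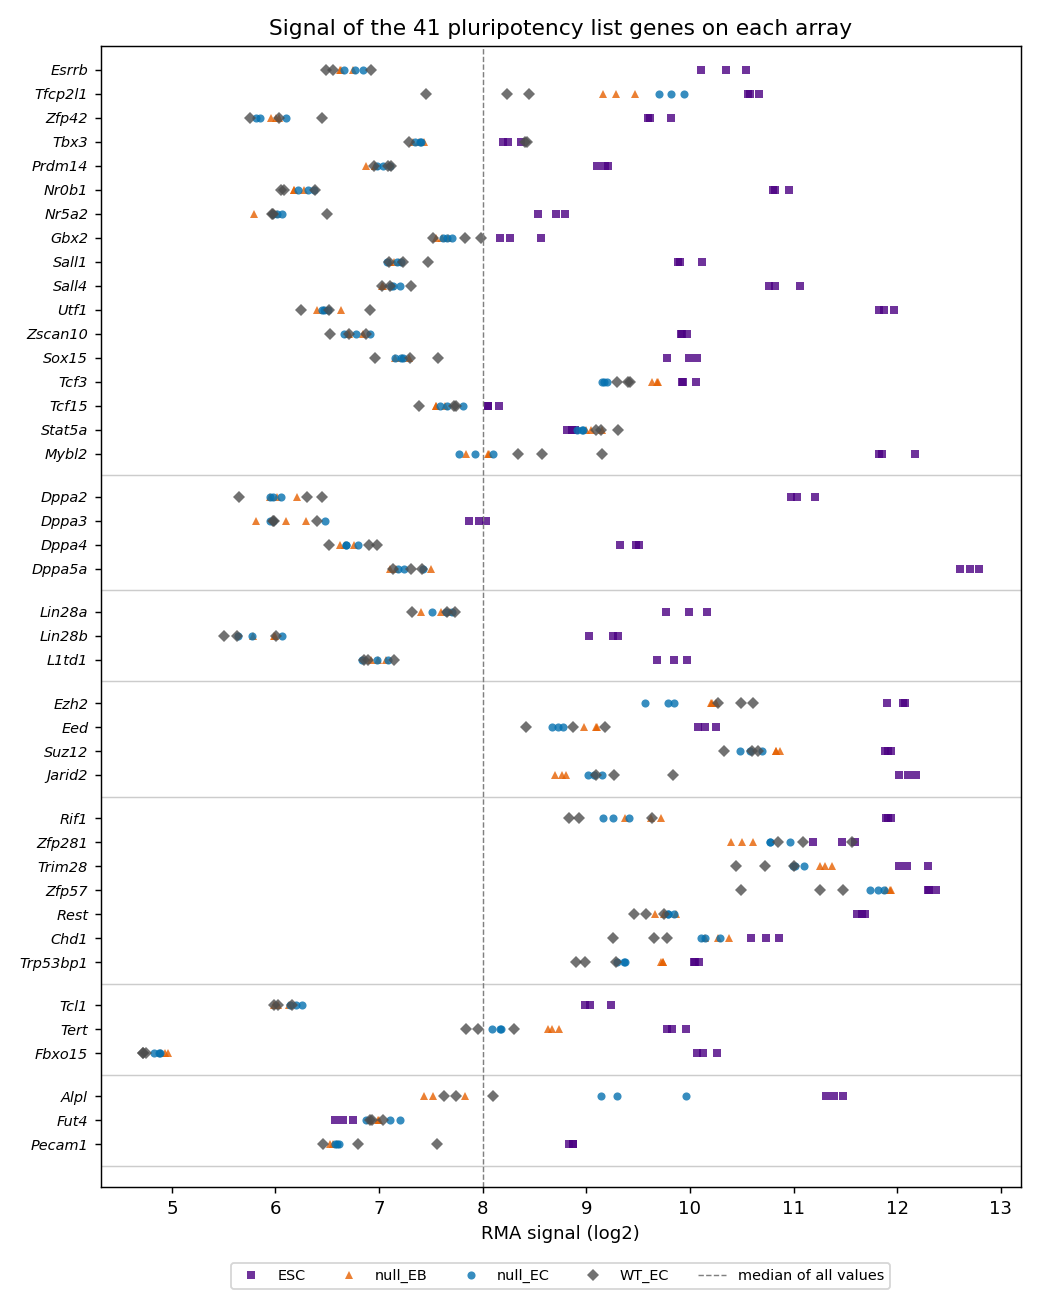
RMA signal (log2, horizontal axis) of the 41 listed genes on each of the 12 arrays, grouped by role, with ESC as squares, null_EB as triangles, null_EC as circles and WT_EC as diamonds; the dashed line is the median of all measured values, 8.01. The ESC arrays lie to the right of all other arrays for 37 genes, and the 3 groups without ESC overlap for most genes left of the line.

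Of the transcription factors, 16 of 17 rose in ESC against null_EB and 1 fell. Utf1, a chromatin-associated factor of undifferentiated embryonic cells, had signals of 11.87, 11.97 and 11.83 in ESC and 6.47, 6.41 and 6.63 in null_EB. The groups were far apart, with ESC 41.9-fold higher in measured signal, and the other arrays had low signal (log2 difference 5.39, SE 0.138, limma adjusted p = 3.28e-10). Nr0b1, an orphan nuclear receptor also known as Dax1, had signals of 10.95, 10.82 and 10.80 in ESC against 6.18, 6.18 and 6.28 in null_EB. It was 25.0-fold higher in measured signal. The orphan receptor Esrrb, a direct partner of the core factors, had 10.35, 10.54 and 10.11 in ESC against 6.75, 6.62 and 6.63 in null_EB. It was 12.7-fold higher in measured signal. The zinc finger genes Sall4 and Zfp42 (Rex1) were 14.1-fold and 12.8-fold higher. The zinc finger genes Zscan10 and Sall1, the Sox-family gene Sox15, the nuclear receptor Nr5a2, which can activate Pou5f1, and Prdm14, which curbs FGF signalling and DNA methylation, were 9.12-fold, 7.06-fold, 6.60-fold, 6.71-fold and 4.70-fold higher. The homeobox gene Gbx2, the T-box gene Tbx3 and the helix-loop-helix gene Tcf15 rose less, by 1.65-fold, 1.85-fold and 1.42-fold.

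Tbx3 also illustrates the spread of WT_EC. Its signals were 8.37, 8.24 and 8.20 in ESC, 7.32, 7.39 and 7.43 in null_EB, 7.35, 7.40 and 7.39 in null_EC, and 8.40, 7.29 and 8.43 in WT_EC. WT_EC arrays 1 and 3 lay above ESC and array 2 lay with the null cells. Tbx3 was not called in ESC against WT_EC (difference 0.23, adjusted p = 0.445) or in null_EC against WT_EC (-0.66, adjusted p = 0.10). These values rest on WT_EC array 2: without it Tbx3 was called lower in null_EC (-1.03, adjusted p = 6.61e-06) and in null_EB (-1.03, adjusted p = 5.38e-06), and array weights also called it in both (-0.79, adjusted p = 0.00982 and 0.00621). Cdh5 had the same order of WT_EC arrays, and the part of endothelial content was not tested.

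The 4 developmental pluripotency associated genes all rose in ESC against each of the other groups, and in the fit of all 12 arrays none was called between the other groups. Without WT_EC array 2, Dppa2 was called lower than in WT_EC in null_EC (-0.39, adjusted p = 0.0161, against -0.14 with it) and in null_EB (-0.32, adjusted p = 0.0332, against -0.07 with it), and Dppa4 in null_EB (-0.25, adjusted p = 0.0354, against -0.11 with it). Dppa5a (Esg1), an RNA-binding KH-domain protein, had signals of 12.71, 12.79 and 12.60 in ESC, 7.11, 7.50 and 7.16 in null_EB, 7.43, 7.18 and 7.24 in null_EC, and 7.31, 7.13 and 7.41 in WT_EC. The 9 arrays without ESC were intermingled, and ESC was 43.5-fold above null_EB in measured signal (log2 difference 5.44, SE 0.119, limma adjusted p = 1.04e-10). On the probe sets used, Dppa2, which pairs with Dppa4 at chromatin, was 32.3-fold and Dppa4 6.74-fold higher in measured signal. Dppa3 (Stella), which protects the egg genome from loss of methylation, had 7.87, 7.96 and 8.03 in ESC against 5.81, 6.29 and 6.10 in null_EB. It was 3.69-fold higher in measured signal, and ESC did not overlap null_EB. Dppa2, Dppa3 and Dppa4 have a second probe set each, whose ESC minus null_EB differences were 4.23, 2.15 and 5.11, against 5.01, 1.88 and 2.75 for the ones used. The direction was the same on both, and the size for Dppa4 depended on the probe set.

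Lin28a and Lin28b, which block maturation of the let-7 microRNAs, and L1td1, an RNA-binding protein derived from a LINE-1 element, all rose in ESC. Lin28b had signals of 9.25, 9.03 and 9.31 in ESC and 5.78, 5.98 and 5.99 in null_EB. ESC and null_EB did not overlap, and Lin28b was 9.70-fold higher, Lin28a 5.33-fold and L1td1 7.17-fold.

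Fbxo15, an F-box protein of ubiquitin ligases and an early marker of reprogramming, had the lowest adjusted p among members in ESC against null_EB. Its signals were 10.26, 10.13 and 10.07 in ESC, 4.97, 4.89 and 4.94 in null_EB, 4.88, 4.83 and 4.89 in null_EC, and 4.72, 4.72 and 4.75 in WT_EC. Outside ESC the signal was low and was not shown to be above background. ESC was 37.3-fold above null_EB in measured signal (log2 difference 5.22, SE 0.0667, limma adjusted p = 2.61e-12). Tcl1, a coactivator of AKT kinase, was 8.24-fold higher. Pecam1 (CD31), an adhesion molecule shared by endothelial and embryonic stem cells, had 8.84 to 8.87 in ESC and low signal elsewhere, with 6.80, 6.46 and 7.56 in WT_EC. It was 4.92-fold above null_EB and was not called between null_EC and WT_EC (difference -0.35, adjusted p = 0.333). Without WT_EC array 2 it was called lower in null_EC (-0.59, adjusted p = 0.0245) and in null_EB (-0.62, adjusted p = 0.0162), and with array weights as well (-0.61, adjusted p = 0.0275, and -0.62, adjusted p = 0.0155).

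**Figure D2:**
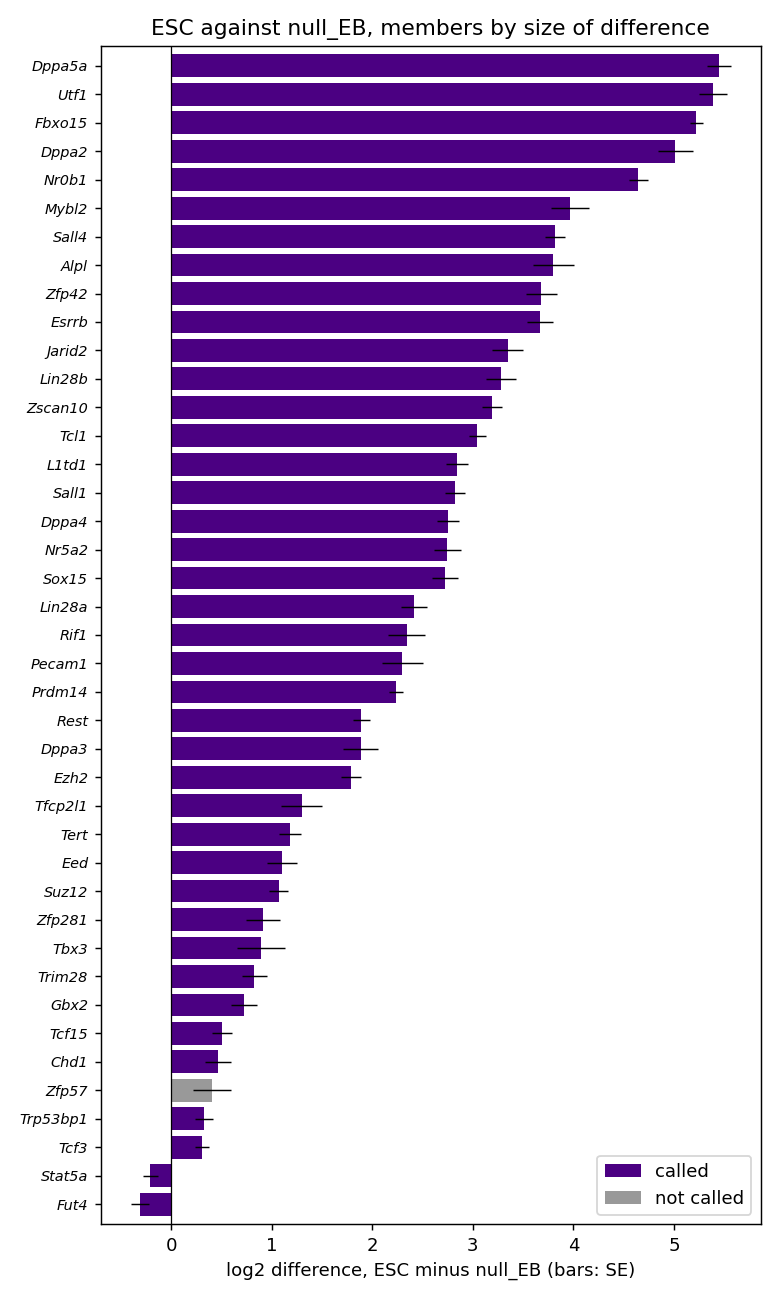
Log2 difference in mean signal, ESC minus null_EB (horizontal axis), for the 41 listed genes in order of size, with the SE from limma as bars; purple marks called genes and grey the gene that was not called. Dppa5a, Utf1, Fbxo15 and Dppa2 exceed 5, Zfp57 was not called, and Stat5a and Fut4 lie below 0.

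The chromatin genes of the list were above the median of all values in every group. All 4 genes of Polycomb repressive complex 2 rose in ESC against null_EB, null_EC and WT_EC. Jarid2, a targeting subunit, was 10.2-fold above null_EB with signals of 12.10, 12.02 and 12.18 in ESC against 8.81, 8.70 and 8.77. The catalytic subunit Ezh2 was 3.45-fold, the scaffold Suz12 2.10-fold and the histone-mark reader Eed 2.14-fold higher. A second, dim probe set of Eed gave a difference of -0.17 in ESC minus null_EB, so its probe sets disagree. Of the 7 other chromatin and genome proteins 6 rose: Rif1, which governs replication timing, 5.07-fold; Rest, a repressor of neuronal genes, 3.71-fold; Zfp281 1.88-fold; the corepressor Trim28 1.77-fold; the remodeller Chd1 1.38-fold; and the repair protein Trp53bp1 1.26-fold. Zfp57, a KRAB zinc finger protein that guards imprints, had 12.37, 12.30 and 12.31 in ESC and 11.93, 11.94 and 11.89 in null_EB. The arrays did not overlap, but the difference of 0.41 was not called (limma adjusted p = 0.111). Zfp57 was called at the same difference when only these 6 arrays were fitted (adjusted p = 0.000169) or the WT_EC group was left out (adjusted p = 3.85e-05), and at 0.42 with array weights (adjusted p = 8.89e-06). When arrays were scaled to equal housekeeping genes, the all-gene median of ESC minus null_EB moved to -0.34, and Tcf3, Tcf15, Chd1 and Trp53bp1 lost their calls (adjusted p = 0.07 to 0.638). Without null_EB array 3 or ESC array 3, Chd1 lost its call as well (adjusted p = 0.0566 and 0.0565). In ESC against null_EC, Zfp57 was called 0.51 higher, but not without any one of those 6 arrays (limma adjusted p = 0.0805 to 0.12). Zfp281 lost its call there without ESC array 3 (adjusted p = 0.0595). The housekeeping shift removed the calls on Tcf15, Zfp281 and Zfp57 in that comparison (adjusted p = 0.0601 to 0.164).

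Stat5a and Fut4 ran the other way. Fut4, a fucosyltransferase listed here with the cell surface markers, had signals of 6.75, 6.58 and 6.65 in ESC, 6.99, 7.00 and 6.91 in null_EB, 7.20, 7.10 and 6.87 in null_EC and 7.04, 6.92 and 6.93 in WT_EC. All 12 values were low, and ESC was lowest, with a difference of -0.31 from null_EB (adjusted p = 0.0157). Stat5a, a cytokine-activated transcription factor, had 8.81 to 8.90 in ESC and 9.00 to 9.15 in null_EB, a difference of -0.21 (adjusted p = 0.039). Stat5a lost this call without any one of 5 arrays, namely the 3 ESC arrays and null_EB arrays 2 and 3 (adjusted p = 0.0609 to 0.15), and Fut4 without null_EB array 2 (adjusted p = 0.0551) or ESC array 2 (adjusted p = 0.0607). The difference of Stat5a from null_EC was -0.09 and was not called (adjusted p = 0.348).

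Over much of the list, no difference was called among the 3 groups without ESC. In at least 1 comparison of these groups 13 of 41 members were called, as were 23.9% of all genes. There were 23 members with low mean signal in all 3 groups, as had 46.6% of all genes. These members included Esrrb, Zfp42, Nr0b1, Utf1, the 4 Dppa genes, Lin28a, Lin28b, Tcl1, Fbxo15 and Pecam1. None of the 23 was called by limma in the 3 comparisons among these groups when all 12 arrays were fitted as reported. Some were called under alternatives. Leaving out WT_EC array 2 gave calls on Pecam1 and Dppa2 against WT_EC in both null groups, on Dppa4 in null_EB and on Nr0b1 in null_EC (0.23 higher, adjusted p = 0.0487). Fbxo15 was called higher in null_EB than in WT_EC after the housekeeping shift (0.31, adjusted p = 0.0225), after the median shift (0.25, adjusted p = 0.023) and with trend and robust variances (0.20, adjusted p = 0.0489). Tcl1 was called lower in null_EB than in null_EC with array weights (-0.20, adjusted p = 0.00628). Their null_EB minus null_EC differences ran over -0.15 to 0.09, with 95% intervals reaching from -0.49 to 0.45. Against WT_EC the differences ran over -0.35 to 0.14 for null_EC and -0.38 to 0.21 for null_EB. At such low signal the arrays may not resolve small differences. Pou5f1, Sox2 and Nanog were likewise called in none of these comparisons.

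Between null_EC and WT_EC, 4 members were higher and 2 lower, at a background of 13.1% of all genes called (8.12% higher, 5.00% lower). The 6 called members are 6 of 41, a share near the background. The count was 3 without null_EC array 1, 15 without WT_EC array 2 and 3 when only the 6 arrays compared were fitted. Over all genes these settings called 1335, 5435 and 588, beside 2615 as reported. At an unadjusted p below 0.05 there were 12 members, beside 5228 of all 19938 genes. The median member difference was 0.00, beside 0.03 over all genes. Tfcp2l1 and Alpl were the 2 members called at least 2-fold higher, as were 1.12% of all genes. Tfcp2l1, a grainyhead-like factor that sustains self-renewal under LIF, had signals of 9.94, 9.70 and 9.82 in null_EC and 7.45, 8.23 and 8.45 in WT_EC. No array overlapped, and null_EC was 3.43-fold higher (log2 difference 1.78, SE 0.205, limma adjusted p = 0.000291). Its signal was 9.47, 9.28 and 9.16 in null_EB and 10.58, 10.66 and 10.56 in ESC, so that the null groups lay between WT_EC and ESC.

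Alpl, tissue-nonspecific alkaline phosphatase and the enzyme behind a common stain for stem cell colonies, had signals of 7.83, 7.43 and 7.52 in null_EB, 9.14, 9.96 and 9.29 in null_EC and 8.10, 7.74 and 7.63 in WT_EC. All null_EC arrays were above both other groups. Against WT_EC, null_EC had 3.12-fold higher Alpl (log2 difference 1.64, SE 0.201, limma adjusted p = 0.000419) and against null_EC, null_EB had 3.65-fold lower Alpl (-1.87, SE 0.201, adjusted p = 0.00053). ESC reached 11.47, 11.32 and 11.39.

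Zfp57 and Chd1 were the other members called higher in null_EC, by 0.73 (adjusted p = 0.0296) and 0.62 (adjusted p = 0.0108). Zfp57 had 11.81, 11.74 and 11.88 in null_EC against 10.50, 11.26 and 11.48 in WT_EC, and WT_EC array 1 was lowest. Chd1 had 10.29, 10.15 and 10.11 in null_EC against 9.26, 9.66 and 9.78 in WT_EC. The calls on Tfcp2l1, Alpl and Ezh2 were kept under every alternative setting. Zfp57 lost its call without any one null_EC array (adjusted p = 0.0699 to 0.103), and Chd1 lost it without null_EC array 1 (adjusted p = 0.0561). When only the 6 arrays compared were fitted, both lost it (limma adjusted p = 0.218 and 0.106). Zfp57 also lost it after the housekeeping shift (adjusted p = 0.0522), and Chd1 with array weights (adjusted p = 0.0507).

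Mybl2 and Ezh2 were lower in null_EC. Mybl2 (B-Myb), a cell cycle transcription factor, had signals of 7.77, 8.10 and 7.93 in null_EC and 9.15, 8.34 and 8.57 in WT_EC, a difference of -0.75 (SE 0.187, limma adjusted p = 0.0223). It lost the call without null_EC array 1 (adjusted p = 0.10) or array 3 (adjusted p = 0.0741). The call was also lost when only the 6 arrays compared were fitted (limma adjusted p = 0.156) and with array weights (adjusted p = 0.0621). Ezh2 had 9.79, 9.84 and 9.57 in null_EC and 10.61, 10.27 and 10.49 in WT_EC, a difference of -0.72 (SE 0.103, limma adjusted p = 0.00108). Both genes follow cell division in many tissues. Of 19 measured proliferation genes 16 were lower and 0 higher in null_EC, with a median difference of -1.44. The array medians of that list were 11.81 to 11.91 in ESC, 8.23 to 8.77 in null_EB, 7.89 to 8.29 in null_EC and 9.32 to 10.29 in WT_EC. The part of proliferation in the differences of Mybl2 and Ezh2 was not tested.

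**Figure D3:**
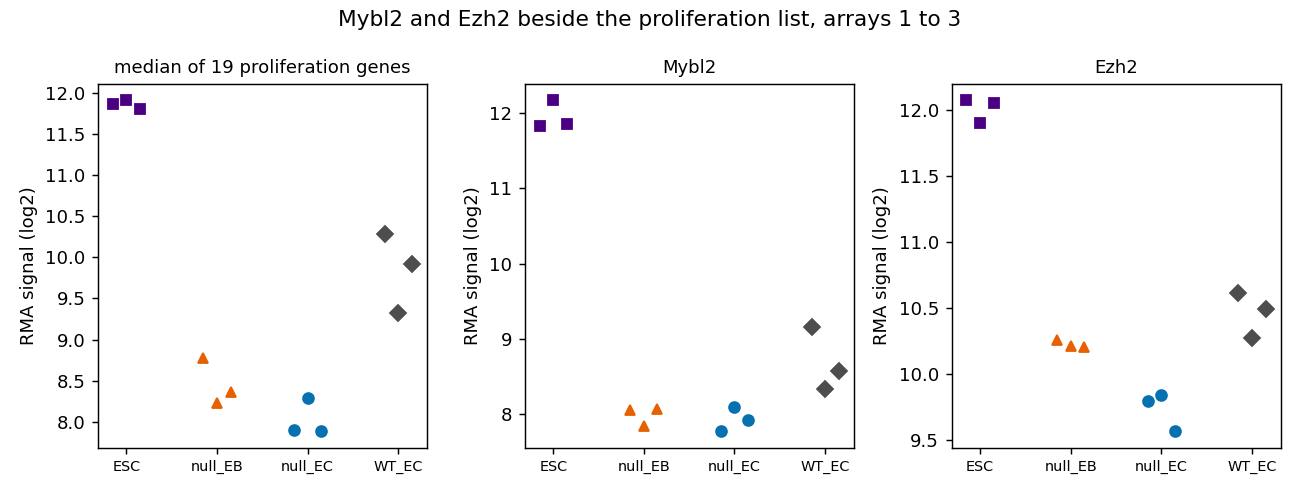
RMA signal (log2, vertical axes, each with its own range) of the proliferation list median, Mybl2 and Ezh2 on arrays 1 to 3 of each group. WT_EC lies above null_EC in each panel, ESC is highest, and Ezh2 was called higher in null_EB than in null_EC whereas Mybl2 was not called between them.

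Between null_EB and null_EC, 4 members rose and 1 fell, at a background of 5.40% of all genes called (2.90% higher, 2.50% lower). Leaving out any one of the 6 arrays left 2 to 3 calls, whereas a fit of these 6 arrays alone gave 12 and array weights gave 14. Over all genes these settings called 390 to 676, 5464 and 8001, beside 1077 as reported. At an unadjusted p below 0.05 there were 7 members, beside 3490 of all 19938 genes. The median member difference was -0.01, as it was over all genes. Alpl, described above, was the 1 that fell. Tert, the catalytic subunit of telomerase, had signals of 8.63, 8.67 and 8.74 in null_EB, 8.17, 8.18 and 8.09 in null_EC and 7.84, 7.96 and 8.31 in WT_EC. The null groups did not overlap, and null_EB was 1.45-fold higher (log2 difference 0.54, SE 0.109, limma adjusted p = 0.0186). The Tert call was lost without any one null_EC array or without null_EB array 2 or 3 (adjusted p = 0.0635 to 0.0871). In ESC it reached 9.82, 9.97 and 9.78.

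Tcf3 and Ezh2 both rose by 0.49 in null_EB. In the gene table Tcf3 is the E-protein gene E2A; the stem cell repressor formerly called Tcf3 is Tcf7l1, which averaged 9.79 in ESC, 8.80 in null_EB, 8.69 in null_EC and 9.03 in WT_EC and was named here for that clash of symbols, after its values were seen. Tcf3 had signals of 9.63, 9.69 and 9.68 in null_EB and 9.15, 9.17 and 9.20 in null_EC, with a limma adjusted p of 0.00209 that held under every alternative. Ezh2 had 10.25, 10.21 and 10.20 in null_EB against 9.79, 9.84 and 9.57 in null_EC (adjusted p = 0.0215), which left it below the WT_EC arrays. It lost its call without null_EC array 1 or 3 or any null_EB array (adjusted p = 0.0601 to 0.0993). Trp53bp1 had 9.74, 9.72 and 9.74 in null_EB against 9.37, 9.37 and 9.29 in null_EC, a difference of 0.39 (adjusted p = 0.0341), and lost the call without any one of these 6 arrays (adjusted p = 0.0949 to 0.143). Of 19 proliferation genes 0 were called here, at a median difference of 0.47.

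Tfcp2l1 was not called between null_EB and null_EC (difference -0.52, adjusted p = 0.207), although their arrays did not overlap. Suz12, Eed and Trim28 were higher on every null_EB than on every null_EC array, and Jarid2 and Zfp281 lower, without passing the test. The second, dim probe set of Eed overlapped, at 5.79 to 6.02 in null_EB and 5.93 to 6.19 in null_EC. The share of all genes whose arrays separate between these groups was not counted, so the separation is only a description. Tfcp2l1, Suz12, Eed, Trim28, Jarid2 and Zfp281 were all called once the WT_EC group, with its wider spread, was left out of the fit. This alternative was added after seeing the data. It called 12 members, 8 higher and 4 lower, in place of 5, and 5058 of all 19938 genes in place of 1077.

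**Figure D4:**
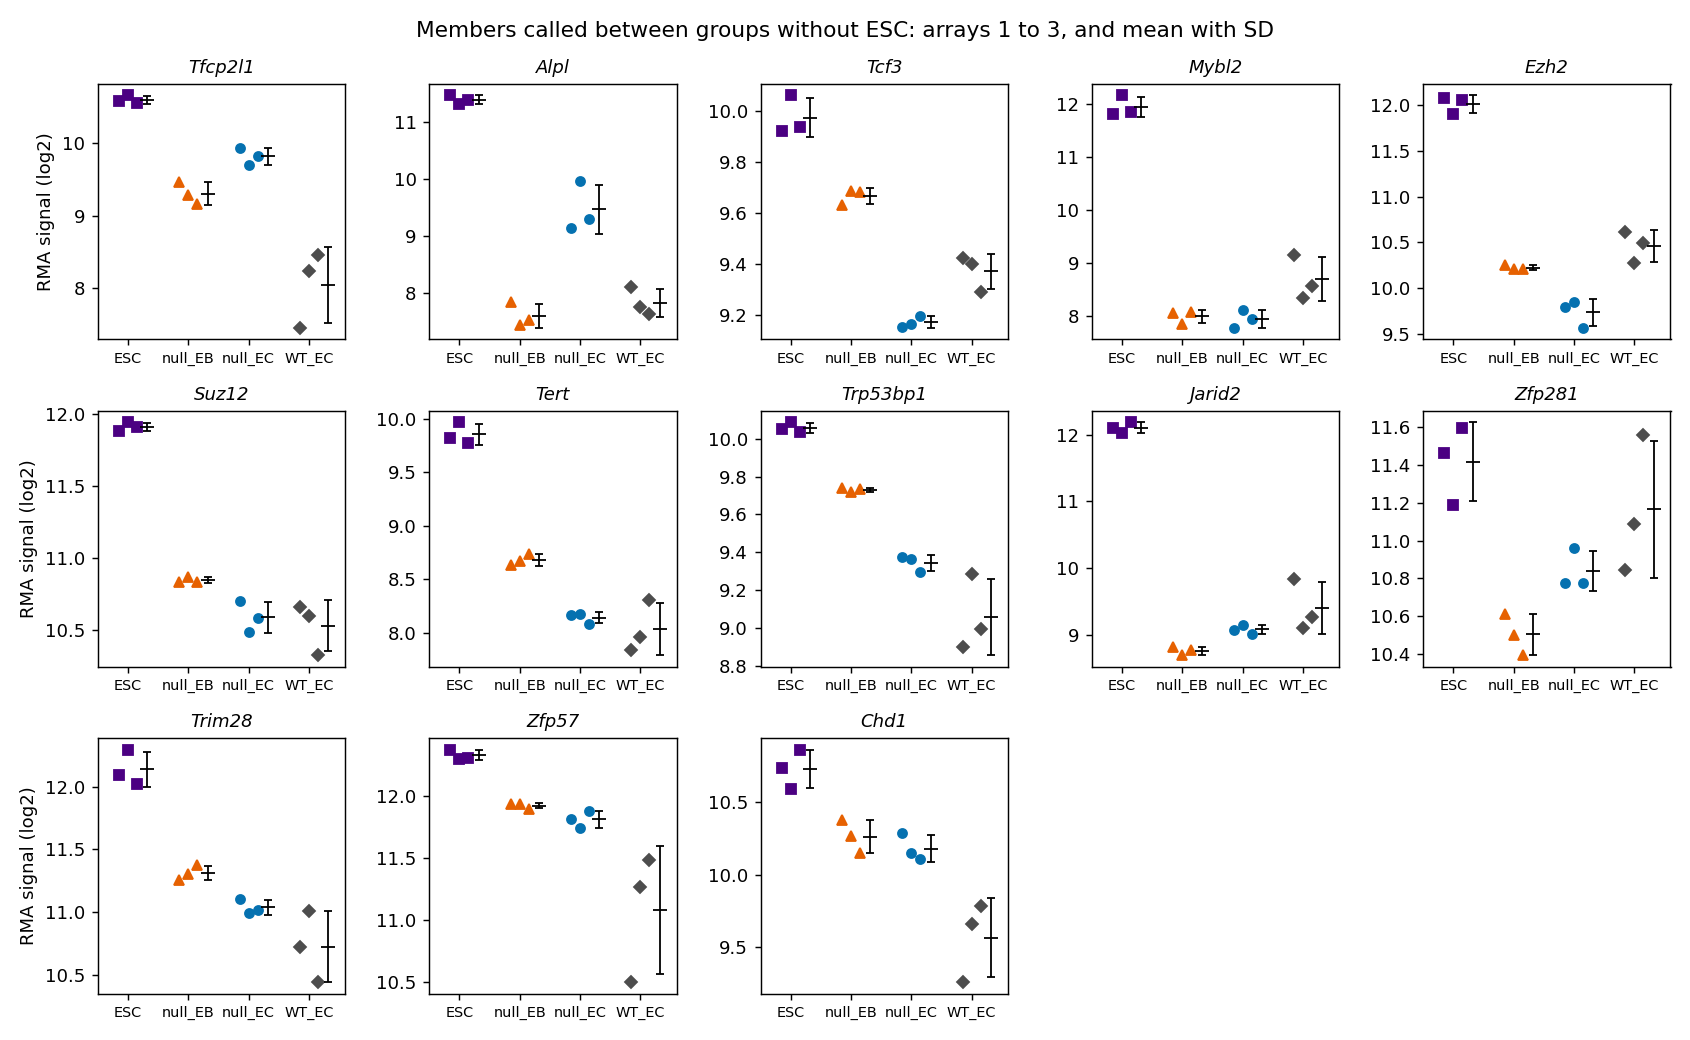
RMA signal (log2, vertical axes, each with its own range) of the 13 listed genes called between at least 1 pair of the groups null_EB, null_EC and WT_EC, with arrays 1 to 3 as points and the mean with SD beside them. Alpl is highest of these groups in null_EC, Tcf3, Tert and Trp53bp1 in null_EB, and Mybl2 in WT_EC.

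In null_EB against WT_EC, 8 members were higher and 3 lower, at a background of 18.5% of all genes called (12.3% higher, 6.19% lower). The count was 6 without null_EB array 2, 19 without WT_EC array 2 and 1 when only the 6 arrays compared were fitted. Over all genes these settings called 2026, 6496 and 870, beside 3697 as reported. At an unadjusted p below 0.05 there were 15 members, beside 6143 of all 19938 genes. The median member difference was -0.03, beside 0.02 over all genes. These values share arrays with the preceding comparisons. Tfcp2l1 was 2.39-fold higher (log2 difference 1.26, SE 0.205, limma adjusted p = 0.00199). Trp53bp1 was 0.67 higher (SE 0.0909, adjusted p = 0.000726), with 8.90, 9.28 and 8.99 in WT_EC. It was the only member of the 11 whose call held under every alternative setting.

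Zfp57, Chd1, Tert, Trim28, Suz12 and Tcf3 were higher in null_EB than in WT_EC by 0.84, 0.70, 0.64, 0.59, 0.32 and 0.30. Trim28 had signals of 11.26, 11.30 and 11.37 in null_EB and 10.72, 11.01 and 10.44 in WT_EC. Suz12 had 10.83, 10.87 and 10.83 against 10.66, 10.60 and 10.33, and its call was lost without WT_EC array 3 or any one null_EB array (limma adjusted p = 0.0825 to 0.114). Tcf3 lost its call without null_EB array 2 (adjusted p = 0.0511). Jarid2, Zfp281 and Mybl2 were lower, with differences of -0.64, -0.66 and -0.70. Jarid2 had 8.81, 8.70 and 8.77 in null_EB against 9.84, 9.10 and 9.26 in WT_EC, and WT_EC array 1 was highest. Zfp281, a zinc finger factor that restrains Nanog, had 10.61, 10.50 and 10.40 against 10.85, 11.09 and 11.56. Mybl2 lost its call without any one null_EB array (adjusted p = 0.0571 to 0.0983), Zfp281 without null_EB array 2 or 3 (adjusted p = 0.0637 and 0.0756), and Jarid2 without null_EB array 2 (adjusted p = 0.062). In this comparison 16 of 19 proliferation genes were lower and 0 higher, with a median difference of -1.17. Of 10 fibroblast and mural markers 4 were lower and 0 higher, with a median difference of -1.02. The part of either in the members' differences was not tested.

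**Figure D5:**
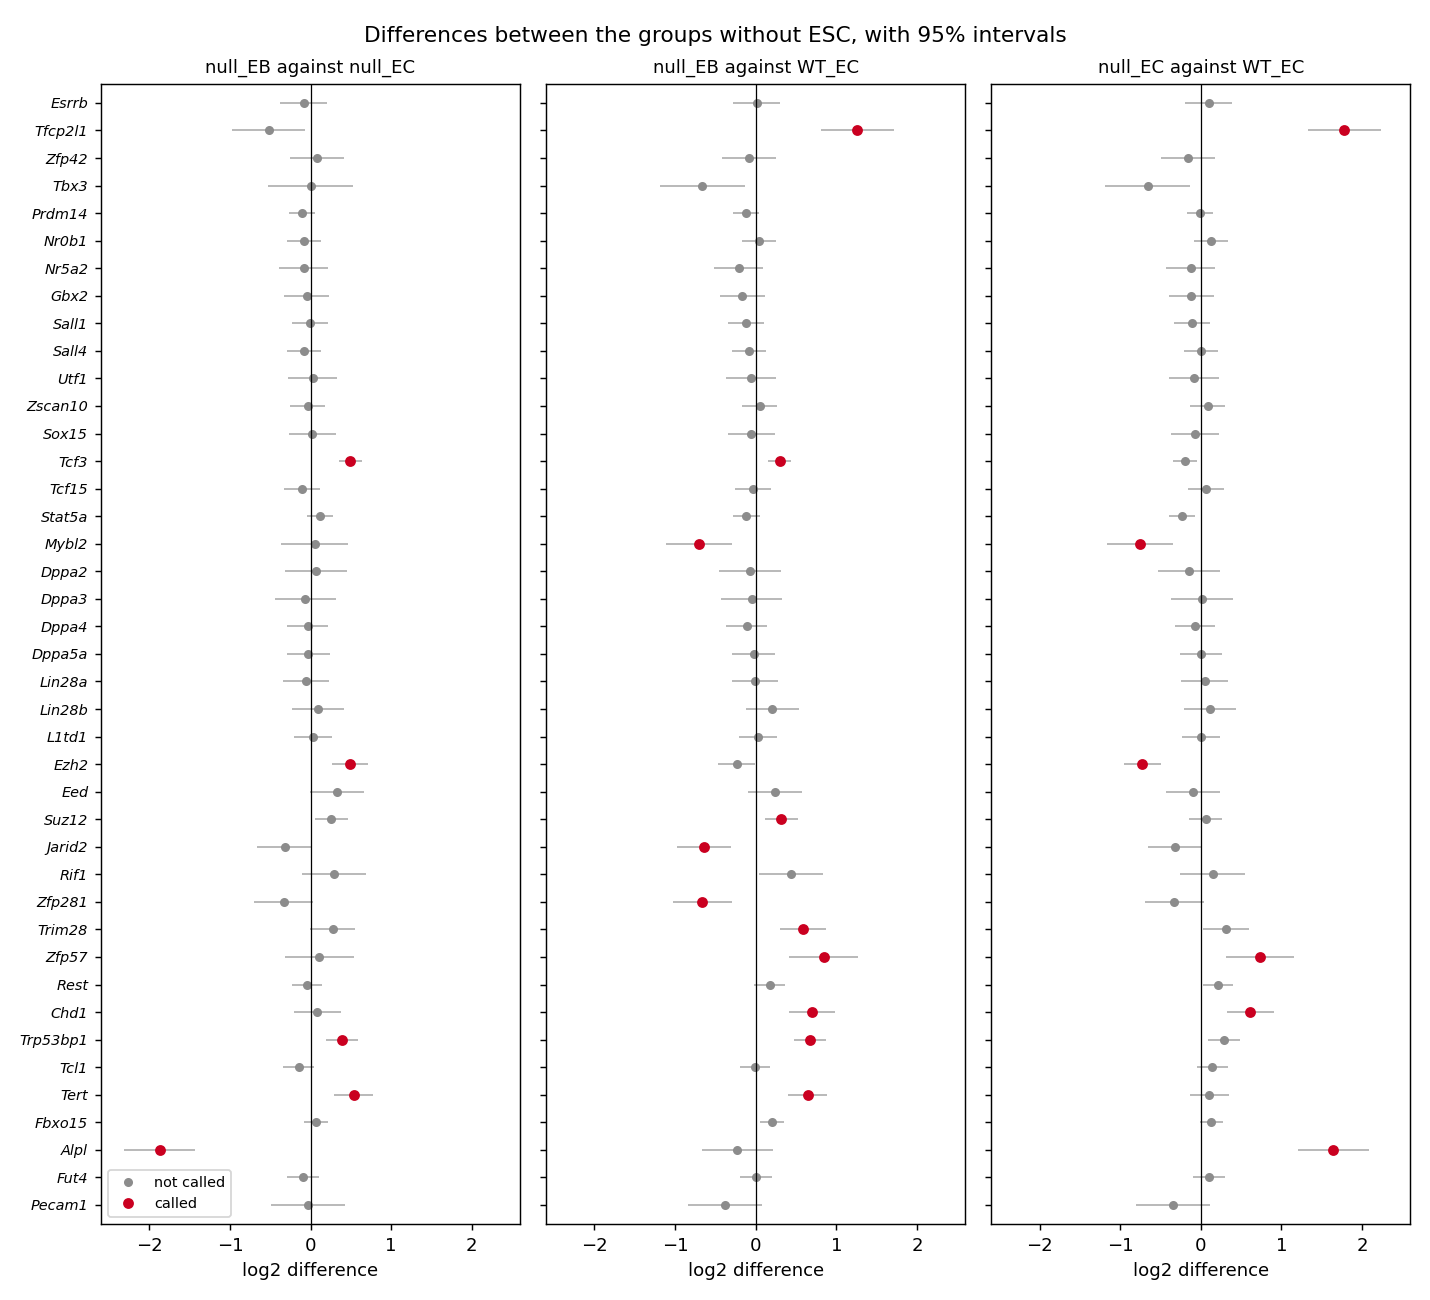
Log2 differences (horizontal axis) for the 41 listed genes in null_EB against null_EC, null_EB against WT_EC and null_EC against WT_EC, with 95% intervals from limma as bars and called genes in red. Most lie near 0. Farthest from it are Alpl in null_EB against null_EC, Tfcp2l1 in null_EB against WT_EC, and both in null_EC against WT_EC.

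Promoter sequence is shown for 5 members called among the lung cell groups, chosen after their values were seen: Tfcp2l1 and Alpl, with the widest differences, Mybl2 and Ezh2, described beside proliferation, and Tert, which rose in null_EB. The sequences are the 250 bases before the annotated start on the gene's strand, in RefSeq GRCm38.p6, and capitals mark motif matches. The motifs searched on both strands were GGCGGGA (E2F), GGGCGG (GC box), AAGGTCA (estrogen-related receptor) and ATTTGCAT (octamer), of which the first and second can overlap. They occurred in 9.75%, 32.7%, 4.08% and 1.60% of 32851 mouse windows of this length. Counted by window, as these shares are, 8 of 37 member windows held the E2F letters and 17 the GC box. The estrogen-related receptor letters were in 1 (Stat5a) and the octamer in 1 (Zfp42). Counted by gene, 8 of the 28 members with a window, out of 41, held the E2F letters and 15 the GC box. A gene can have several windows, so the counts by gene are not comparable with the shares. Alpl has 2 starts, and its windows hold 20 and 4 CpG. The Mybl2 window holds the E2F letters 13 bases before the start and 4 GC boxes. The Tert window holds the E2F letters 16 bases before the start, overlapping a GC box, and another GC box. The windows of Tfcp2l1, of Ezh2 and of the second Alpl start hold none of these letters. A match is a description of the letters, and binding was not measured.
Tfcp2l1, chr1:118627695-118627944, plus strand: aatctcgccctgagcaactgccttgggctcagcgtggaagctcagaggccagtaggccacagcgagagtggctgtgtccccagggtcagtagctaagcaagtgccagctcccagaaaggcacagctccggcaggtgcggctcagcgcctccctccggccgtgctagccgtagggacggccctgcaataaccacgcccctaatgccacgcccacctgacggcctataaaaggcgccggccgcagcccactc
Alpl first start, chr4:137796385-137796634, minus strand: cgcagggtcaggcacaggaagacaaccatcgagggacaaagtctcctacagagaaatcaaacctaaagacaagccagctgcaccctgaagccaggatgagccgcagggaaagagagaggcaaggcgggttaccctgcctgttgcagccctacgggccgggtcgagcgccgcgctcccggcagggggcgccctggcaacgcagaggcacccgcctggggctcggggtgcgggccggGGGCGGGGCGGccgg
Alpl second start, chr4:137766476-137766725, minus strand: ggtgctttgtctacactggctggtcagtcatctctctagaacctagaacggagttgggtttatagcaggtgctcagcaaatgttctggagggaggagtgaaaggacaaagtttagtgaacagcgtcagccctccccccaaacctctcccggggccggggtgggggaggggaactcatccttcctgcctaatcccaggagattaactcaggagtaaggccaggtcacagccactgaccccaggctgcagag
Mybl2, chr2:163054385-163054634, plus strand: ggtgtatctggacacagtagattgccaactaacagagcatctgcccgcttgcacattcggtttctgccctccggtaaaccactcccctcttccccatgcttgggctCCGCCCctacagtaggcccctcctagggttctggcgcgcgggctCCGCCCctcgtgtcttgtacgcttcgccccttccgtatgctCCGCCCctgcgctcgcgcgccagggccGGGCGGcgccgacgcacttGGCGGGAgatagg
Ezh2, chr6:47595031-47595280, minus strand: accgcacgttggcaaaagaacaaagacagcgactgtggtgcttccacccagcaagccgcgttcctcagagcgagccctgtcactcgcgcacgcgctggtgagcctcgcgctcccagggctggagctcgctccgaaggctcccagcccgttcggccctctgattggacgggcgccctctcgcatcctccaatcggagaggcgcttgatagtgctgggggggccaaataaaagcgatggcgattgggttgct
Tert, chr13:73626661-73626910, plus strand: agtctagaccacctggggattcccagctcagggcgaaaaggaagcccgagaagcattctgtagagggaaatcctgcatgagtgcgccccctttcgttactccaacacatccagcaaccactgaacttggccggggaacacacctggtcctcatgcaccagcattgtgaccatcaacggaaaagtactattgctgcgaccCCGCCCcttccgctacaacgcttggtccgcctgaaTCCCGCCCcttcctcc

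Neighbouring gene lists were counted in the same fit. Of 22 other pluripotency genes measured, 21 were higher in ESC against each other group, led by the Nodal co-receptor Tdgf1 (6.76 against null_EB). Klf4, one of the reprogramming factors, was the exception: it was called higher in null_EB than in null_EC by 0.93 (limma adjusted p = 0.019) and than in WT_EC by 1.01, and lower in ESC than in null_EB, a difference of -1.05. Of 22 genes 0 were called between null_EC and WT_EC, where 2 had an unadjusted p below 0.05. Of 7 further Polycomb repressive complex 2 genes, Phf1 and Mtf2, accessory subunits, rose in null_EB against null_EC by 0.83 (adjusted p = 0.00135) and 0.55 (adjusted p = 0.0417). Phf1 also rose in null_EC against WT_EC by 0.57, whereas Phf19 fell, with a difference of -0.45. Of 11 germ cell genes 10 were higher in ESC against each group, with Sycp3, a component of meiotic chromosomes, 6.00 above null_EB. None of the 11 was called by limma between the other groups, where 0 to 1 had an unadjusted p below 0.05. Of 10 LIF pathway genes, 2 were higher and 4 lower in ESC against null_EB, beside 21.8% and 23.0% of all genes. Stat3 was lower there, with a difference of -0.90. Of 7 primed state genes 4 were higher and 1 lower in the same comparison, led by Otx2 at 5.63.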

How the data were processed

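RNA from 12 mouse samples was hybridised to 1 array each. The deposited values are log2 signals which, per the submitters' processing notes, the authors made with Affymetrix Expression Console 1.2.1 and RMA (background correction, quantile normalization and median polish). The label protocol names a human array, but the identifiers of the probe sets are those of a mouse gene array, and its gene table was used. Of 35556 probe sets, 21789 had 1 gene, 1621 had several and 12146 had none; only the first were used. For the 999 genes with several, the probe set with the highest mean was taken, leaving 19938 genes. The 41 members were matched by symbol.

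Samples were grouped by title. In limma 3.58.1 under R 4.3.3, a linear model of all 12 arrays estimated the mean of each group (figures: Python 3.11.15, matplotlib 3.10.9), for 6 comparisons among the 4 groups, with Benjamini-Hochberg adjustment over all genes within a comparison. The fit was tested on simulated data in which each gene had the same spread in every group. This test could not show the effect of the wider spread of WT_EC. Arrays have no depth; 3 per group limit the precision, and an exact permutation test of 3 against 3 cannot go below p = 0.10. Alternatives were the 6 arrays compared alone, leaving out dim genes (those not reaching a log2 of 6 on 3 arrays), the mean of probe sets, 2 shifts of scale, trend and robust variances, array weights, a replicate block and leaving out each array. Members, roles and lists (proliferation, endothelial, mesothelial, fibroblast and mural, leukocyte, epithelial, housekeeping, other pluripotency, LIF pathway, other Polycomb repressive complex 2, primed state, germ cell) were chosen with earlier results of these data known. Named genes are all members, then Pou5f1, Sox2, Nanog and Cdh5, then per list and comparison up to 2 called genes with the largest increase and 2 with the largest decrease. For the lists whose counts in null_EC against WT_EC are not given above, the higher and lower calls were as follows. Mesothelial genes had 4 and 0 of 8, endothelial 1 and 1 of 15, and leukocyte 0 and 1 of 12. Fibroblast and mural genes had 0 and 2 of 10, epithelial 1 and 0 of 8, and housekeeping 2 and 0 of 20. LIF pathway genes had 1 and 1 of 10, other Polycomb repressive complex 2 genes 1 and 1 of 7, and primed state genes 0 and 0 of 7.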

Additional observations from a re-analysis of the deposited data

How the results depend on the processing

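The counts of members called in ESC against null_EB, null_EC and WT_EC (40, 40 and 39) stayed within 1.5 times under all alternatives; leaving out single arrays gave 38 to 40, 38 to 39 and 38 to 40. In null_EC against WT_EC the count of 6 became 3 with only the 6 arrays compared, and 3 (without null_EC replicate 1) to 15 (without WT_EC replicate 2) when 1 array was left out. In null_EB against null_EC the count of 5 became 12 with the 6 arrays alone, 14 with array weights, 12 without the WT_EC group (added after seeing the data) and 2 to 3 when 1 array was left out. In null_EB against WT_EC the count of 11 became 1 with the 6 arrays alone and 6 (without null_EB replicate 2) to 19 (without WT_EC replicate 2) when 1 array was left out. The cause of these changes in count was not tested. Over all genes, null_EC against WT_EC had 2615 calls, and 588 with 6 arrays and 1335 to 5435 with 1 array left out; null_EB against null_EC had 1077, and 5464 with 6 arrays, 8001 with weights, 5058 without WT_EC and 390 to 676 with 1 array left out; null_EB against WT_EC had 3697, and 870 with 6 arrays and 2026 to 6496 with 1 array left out. ESC against null_EB had 8929, and 13715 after the housekeeping shift and 14866 with weights, and ESC against WT_EC had 9394, and 6250 with 6 arrays. The housekeeping shift moved the higher and lower calls over all genes to 973 and 308 in null_EB against null_EC (main 578 and 499), 3425 and 860 in null_EB against WT_EC (2462 and 1235), 3002 and 10713 in ESC against null_EB (4338 and 4591), 3630 and 8160 in ESC against null_EC (4556 and 5004) and 3996 and 7579 in ESC against WT_EC (5065 and 4329). The median shift moved them to 3765 and 6913, 4000 and 7268, and 4659 and 5512 in the ESC comparisons in that order. Of 3567 member results under alternatives, 0 changed sign while called, 82 lost a call and 56 gained one. Arrays with the same replicate number showed no clear common deviation (correlations of -0.256 to 0.225, 3 of 18 above 0.1). Of 12 arrays, 4 correlated best with an array of their own number. With 3 arrays per group this check showed no pairing by number but cannot exclude it. With the replicate block, 6, 4 and 10 members were called in null_EC against WT_EC, null_EB against null_EC and null_EB against WT_EC, and 40, 39 and 39 in ESC against null_EB, null_EC and WT_EC.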
